A study of Mus musculus with 2 samples.

Results

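The keratin genes were examined in bulk RNA sequencing of GFP+ cells sorted from mouse skin. Members were all genes whose symbol is Krt followed by a number and at most 1 letter, and 55 of the 50559 genes in the count tables met that rule. Keratin-associated proteins (Krtap) and Krtdap were not members. The cells came from dorsal skin of mice with the genotype Polr2b.fl.fl.GFP; K14Cre on postnatal day 21, when hair follicles rest (telogen). These mice carry floxed Polr2b, which encodes the second largest subunit of RNA polymerase II, with GFP, and Cre driven by the promoter of keratin 14. That promoter works in basal keratinocytes, so the recombined allele passes to their descendants in the epidermis and follicle as well. Live GFP+ cells were collected by flow cytometry. The series has 1 group of 2 replicate libraries and no control group, so the comparisons below are among the keratin genes and between the libraries.

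Keratins are the intermediate filament proteins of epithelia. Each filament is built from obligate pairs of an acidic type I and a basic type II keratin, and the pair in use changes with the layer and the appendage. Basal keratinocytes make Krt5 with Krt14, the spinous cells above them make Krt1 with Krt10, stressed and companion layer cells make Krt6 with Krt16 or Krt17, simple epithelia make Krt8 with Krt18, and the inner root sheath and hair shaft have keratins of their own that are made while a hair grows.

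Replicate 2 held 33489967 counts and replicate 1 held 36692204 counts. Levels are given as CPM, the count scaled to the library total, and between genes as TPM, which also divides by the deposited gene length. Whether each library is 1 animal or a pool is not stated in the labels. Xist, the RNA of the inactive X chromosome, had 11 counts in replicate 2 and 112587 in replicate 1, while 4 Y-linked genes had 6503 and 1 counts in all. By these counts replicate 2 held male cells and replicate 1 female cells. Sex therefore cannot be told apart from any other difference between the libraries. Epithelial markers were present, with all 13 reaching 10 CPM in both libraries and a sum of 13594 CPM in replicate 2 against 10532 in replicate 1. Fibroblast markers were present too, with 9 of 10 at that level and a sum of 6815 CPM in replicate 2 against 13723 in replicate 1, as were those of myeloid cells, with 8 of 9 and sums of 8362 and 7683 CPM. In replicate 1 the fibroblast sum was above the epithelial sum. Levels and shares below are therefore of all RNA in each library, not of keratinocytes alone. In bulk RNA, fewer cells of a type and less RNA per cell cannot be told apart.

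The family took 2.19% of all counts in replicate 2 and 1.34% in replicate 1. At 1 CPM or more in both libraries, which is 33.5 and 36.7 counts, 21 of the 55 members were detected, beside 31.3% of all listed genes, and 13 members reached 10 CPM in both. Counts were concentrated in Krt5, Krt15, Krt14, Krt10, Krt77 and Krt1, which together held 91.9% of keratin counts in replicate 2 and 89.4% in replicate 1. At the other end, 5 members had no count in either library. The plot of levels by group shows every member that had a count.

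**Figure D1:**
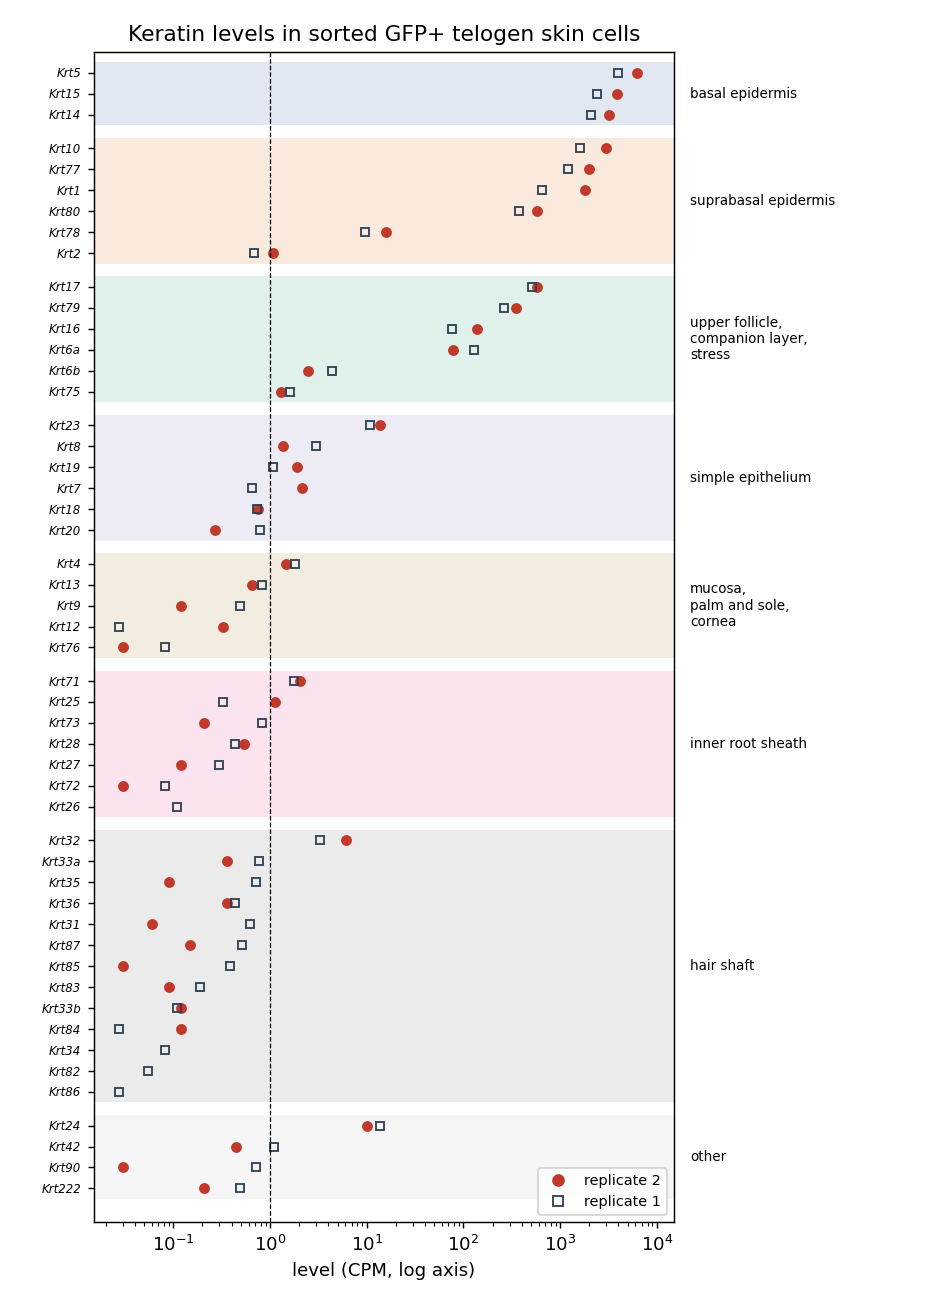
Level of each keratin with a count, in CPM on a log axis, with filled circles for replicate 2 and open squares for replicate 1, grouped by where the keratin is known to be made. The dashed line marks 1 CPM. A library with 0 counts has no point, and the 5 members without a count in either library are not drawn. The basal keratins lie at 2102 CPM or more in both libraries, and Krt32, at 6.15 and 3.27 CPM, is the highest of the hair shaft group.

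The libraries were compared gene by gene with the exact two-sided binomial test, adjusted (Benjamini-Hochberg) over all 23690 genes with 10 or more counts in total. This test compares these libraries and no condition, and it covers counting error only. Of the 42 keratins tested, 30 passed, 17 higher and 13 lower in replicate 2, while 44.1% of all tested genes passed, 16.9% higher and 27.2% lower. Scaled to the median ratio of the 13 epithelial genes, which lowers every log2 ratio by 0.33, 14 keratins were higher and 18 lower. Under that scaling 975 of all 23690 tested genes were higher and 13554 lower. Before it, the median log2 ratio was -0.12 for the tested keratins and -0.08 for all tested genes. Among the 21 detected members, whose counts are deeper, 14 were higher and 4 lower, beside 22.1% and 32.2% of all genes detected in both libraries (54.3% in all). After epithelial scaling 11 were higher and 7 lower, beside 689 and 11272 of the 15833 genes detected in both libraries. With a spread common to all genes, estimated at 22.7% of the level, edgeR's exact test called 1 of the 42 (Krt90). The threshold was an adjusted p under 0.05, which 0.279% of all tested genes passed. An unadjusted p under 0.05 in that test was reached by 13 of the 42, beside 1702 of all 23690 tested genes. At the adjusted threshold edgeR's test called 0 of the 21 detected members, beside 0.0758% of all genes detected in both libraries. Unadjusted, 4 of the 21 were under 0.05, beside 510 of those 15833 genes. Below, higher and lower refer to the binomial test, and all of these calls but that of Krt90 were lost in edgeR's test.

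Basal keratins were the most abundant, and all 3 were higher in replicate 2, beside 16.9% of all tested genes. Krt5, the basal type II keratin, had 6249 CPM in replicate 2 against 3997 in replicate 1, a ratio of 1.56. Its type I partner Krt14 had 3176 and 2102 CPM, a ratio of 1.51. Krt15, a type I keratin of basal cells that is also high in bulge stem cells of the follicle, had 3868 and 2415 CPM, a ratio of 1.60. The 3 genes thus stood in nearly the same proportion in both libraries. By the binomial test they stayed higher in replicate 2 after epithelial scaling, at log2 ratios of 0.31, 0.26 and 0.35 for Krt5, Krt14 and Krt15. Before scaling, the epithelial genes used for it ranged from -0.47 to 0.61 themselves, beside 0.60 for Krt14. Together they made up 73.0% of the summed keratin TPM in replicate 2 and 74.4% in replicate 1.

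Suprabasal keratins followed, and 5 of 6 were higher in replicate 2, beside 16.9% of all tested genes. Krt10, the type I keratin of the spinous layer, had 3001 CPM in replicate 2 against 1591 in replicate 1, a ratio of 1.89. Its type II partner Krt1 had 1810 and 643 CPM, and its ratio of 2.82 was the largest of any detected keratin, or 1.49 on the log2 scale with an exact 95% counting interval of 1.47 to 1.52, and an adjusted p of 0.149 in edgeR's exact test. Krt77, a type II keratin related to Krt1, had 1975 and 1205 CPM. Krt1 and Krt10 therefore differed more between the libraries than the basal keratins did, while Krt77, at a ratio of 1.64, stood close to them. No test of the difference between these ratios was made. Krt80, a type II keratin of differentiating epithelial cells, had 570 and 372 CPM. Krt78, a suprabasal type II keratin, was far lower, at 16.0 and 9.48 CPM. Krt2, which marks the upper spinous and granular layers in thick or exposed skin, did not reach 1 CPM in both libraries, with 36 counts in replicate 2 and 25 in replicate 1, an adjusted p of 0.171 by the binomial test.

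Keratins of the upper follicle, the companion layer and stressed epidermis did not move together. Of the 6, 3 were higher and 2 lower in replicate 2, beside 16.9% and 27.2% of all tested genes. Krt17, a type I keratin of the follicle's outer layers that is also induced by stress, had 580 CPM in replicate 2 against 513 in replicate 1, a ratio of 1.13. After epithelial scaling it was lower in replicate 2, at a log2 ratio of -0.16. Krt79, a type II keratin of the upper follicle, had 346 and 266 CPM. Krt16, a type I stress keratin, was higher in replicate 2 at 139 CPM, against 76.2 CPM in replicate 1. Its type II partner Krt6a went the other way, at 78.7 CPM in replicate 2 against 128 in replicate 1, and Krt6b was lower too, at 2.45 and 4.42 CPM. Per length, the summed TPM of Krt6a and Krt6b was 0.0778 times that of Krt16 and Krt17 in replicate 2 and 0.155 times in replicate 1. Krt75, the type II keratin of the companion layer, had 43 and 59 counts and did not pass the test, at an adjusted p of 0.401, but was lower in replicate 2 after epithelial scaling, at a log2 ratio of -0.65 and an adjusted p of 0.0380 by the binomial test. Under that scaling the group had 2 higher and 4 lower, beside 975 and 13554 of all 23690 tested genes. Krt6a and Krt6b share a stretch of 1193 bases at 97.0% identity in the GENCODE transcripts, and 880 bases of Krt16 match the gene Gm11597 at 97.3%, so their separate counts are uncertain.

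Simple epithelial keratins were low, and 5 of the 6 stayed under 5 CPM in both libraries. Krt23, a type I keratin, was the highest of the 6 at 13.6 CPM in replicate 2 against 10.8 in replicate 1, and it no longer passed the binomial test after epithelial scaling, at a log2 ratio of -0.0036. Krt8, the type II keratin of simple epithelia and Merkel cells, reached 46 counts in replicate 2, against 110 in replicate 1, while its partner Krt18 had 25 and 27. Krt19, which is known from the bulge and from simple epithelia, had 63 and 39 counts, or 3.30 and 1.86 TPM, beside 5582 and 3479 TPM for Krt15. Krt7 had 71 and 24 counts, and Krt20, a Merkel cell and gut keratin, had 9 and 29. Krt8 and Krt20 were lower and Krt7, Krt19 and Krt23 higher in replicate 2 by the binomial test, with Krt19 no longer past it after epithelial scaling, at an adjusted p of 0.160. Merkel cell genes other than keratins summed to 8.03 CPM in replicate 2 against 13.4 in replicate 1 over 6 genes, with a median log2 ratio of 0.11 over the 4 tested. Cplx2 and Piezo2 reached 1 CPM in both libraries and were lower in replicate 2, while Sox2 had 10 and 3 counts and Insm1 had 11 and 6, and neither passed the test. Atoh1, the defining transcription factor, had no count. The part of those cells in the Krt8 and Krt20 difference was not tested. Krt8 matches its annotated pseudogene Krt8-ps at 98.6% over 941 bases.

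Keratins of the inner root sheath, the hair shaft, mucosa, palm and sole, and cornea were scarce. Of 8 inner root sheath keratins only Krt71 was detected, with 68 counts in replicate 2 and 65 in replicate 1, and it did not pass the test, at an adjusted p of 0.568. Below 1 CPM in a library, Krt25 was higher with 38 and 12 counts and Krt73 lower with 7 and 30. Of 16 hair shaft keratins only Krt32, a type I keratin of the hair cuticle, was detected, with 206 and 120 counts, and it was higher in replicate 2. The 16 hair shaft genes summed to 252 counts in replicate 2 and 264 in replicate 1, of which Krt32 is the largest part. Of the 7 other hair keratins tested, 4 were lower in replicate 2 and 3 did not pass, while 27.2% of all tested genes were lower. Krt35 had 3 and 26 counts, Krt31 had 2 and 23, and Krt85 had 1 and 14. Krt87 was also lower, with 5 and 19 counts. Krt31, Krt33a, Krt33b and Krt34 match each other at 93% identity or more over 66.5% to 79.2% of their length, as do Krt81, Krt83, Krt86 and Krt87 over 55.8% to 78.7%, so reads may be shared within each set. Hoxc13, a transcription factor that activates hair keratin genes, had 8.99 CPM in replicate 2 against 16.5 in replicate 1, and it was lower in replicate 2. In the list of 16 regulators it comes from, 3 were lower and 12 higher, beside 27.2% and 16.9% of all tested genes. Foxn1 was among the higher ones, at 15.3 CPM in replicate 2 against 9.10 in replicate 1.

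Of the 5 keratins of mucosa, palm and sole, and cornea, Krt4 was detected, with 49 counts in replicate 2 and 66 in replicate 1. Its adjusted p of 0.433 became 0.0333 after epithelial scaling (log2 ratio -0.63, binomial test). Under that scaling 13554 of all 23690 tested genes were lower. Krt13, the mucosal partner of Krt4, had 22 and 30 counts. Krt12, the corneal keratin, had 11 counts in replicate 2 and 1 in replicate 1, and Krt9, the keratin of palm and sole, had 4 and 18. By the binomial test Krt12 was higher and Krt9 lower in replicate 2. Krt76 had 1 and 3. Among the 4 remaining genes, Krt24 was detected with 336 counts in replicate 2 and 505 in replicate 1 and was lower in replicate 2. Krt42 had 15 and 40 counts and Krt222 had 7 and 18. Krt90 had 1 count in replicate 2 and 26 in replicate 1, a log2 ratio of -4.57 with no pseudocount (-4.01 with 0.5 added to the counts) and an exact 95% counting interval of -9.93 to -1.96, and an adjusted p of 0.0374 in edgeR's exact test. Krt39, Krt40, Krt74, Krt81 and Krt88 had no count in either library. Of these, Krt74 is annotated as a transcribed pseudogene in RefSeq. The floor of 3 counts that a 0 allows is 0.0896 CPM for replicate 2 and 0.0818 for replicate 1, for counting error only.

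**Figure D2:**
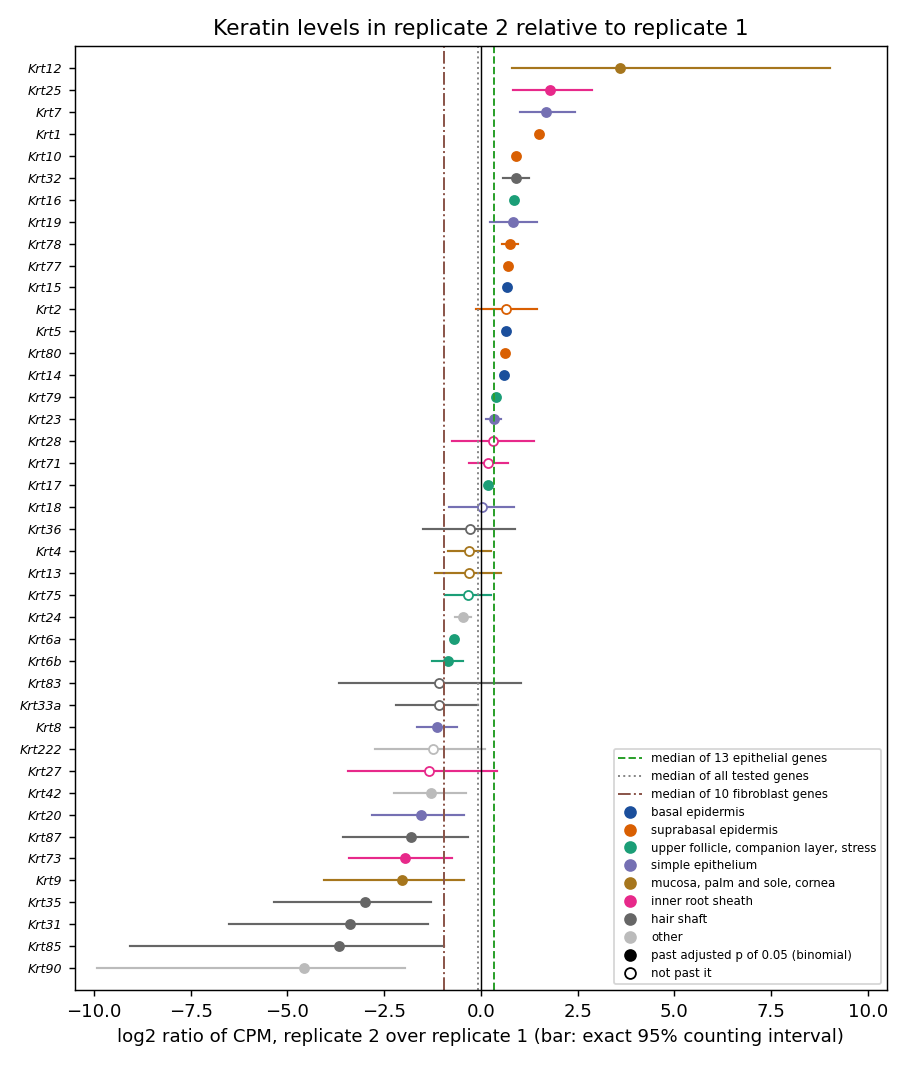
Log2 ratio of CPM in replicate 2 over replicate 1 for the 42 tested keratins, with no pseudocount, with exact 95% counting intervals. Filled points passed the binomial test, and vertical lines mark the medians of the 13 epithelial genes, all tested genes and the 10 fibroblast genes. The basal and suprabasal keratins with deep counts lie right of the epithelial median of 0.33, with Krt1 farthest at 1.49, while Krt6a, Krt6b and Krt8 lie left of 0, as do the 4 hair shaft keratins called lower.

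Levels were then compared between partners, per length. Summed over the family, type II keratins reached 11487 TPM in replicate 2 and 6915 TPM in replicate 1, and type I keratins 12074 and 7873 TPM. The type II to type I ratio was 0.951 in replicate 2 and 0.878 in replicate 1, or -0.13 ± 0.08 on the log2 scale (SD, n = 2), with type I above type II in both libraries. Without scaling by length the log2 ratio was 0.0064. Among the pairs, Krt5 exceeded Krt14 by 1.53 times in replicate 2 and 1.48 times in replicate 1. Krt15 adds a second type I keratin to the basal set, with 5582 and 3479 TPM beside 4583 and 3028 TPM for Krt14. No p is given for these ratios, since the lowest that 2 libraries allow in an exact sign-flip test (two-sided) is 0.5.

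The Krt1 and Krt10 pair depended on the length used. With the deposited lengths, Krt1 had 1836 TPM in replicate 2 and 651 TPM in replicate 1, and Krt10 706 and 373 TPM, which puts Krt1 above Krt10 by 2.60 and 1.74 times. The deposited length of Krt10 is 10555 bases, which is 5.04 times that of its longest protein-coding GENCODE transcript. Of the 54 members with a GENCODE transcript, of any kind where no protein-coding one was given, 4 exceeded theirs by more than 1.5 times. GENCODE lengths were put in for the keratins only, with the counts and the TPM total over all genes left as they were. Any reads outside the GENCODE transcript of Krt10 thus still count in its value. With the GENCODE lengths, Krt10 reached 3557 TPM in replicate 2 and 1882 TPM in replicate 1, and the Krt1 to Krt10 ratio turned to 0.514 and 0.345. The same change moved the type II to type I ratio of the family to 0.760 in replicate 2 and 0.728 in replicate 1. It moved the suprabasal share of keratin TPM to 28.1% in replicate 2 and 23.2% in replicate 1, against 19.7% and 15.7% with the deposited lengths.

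**Figure D3:**
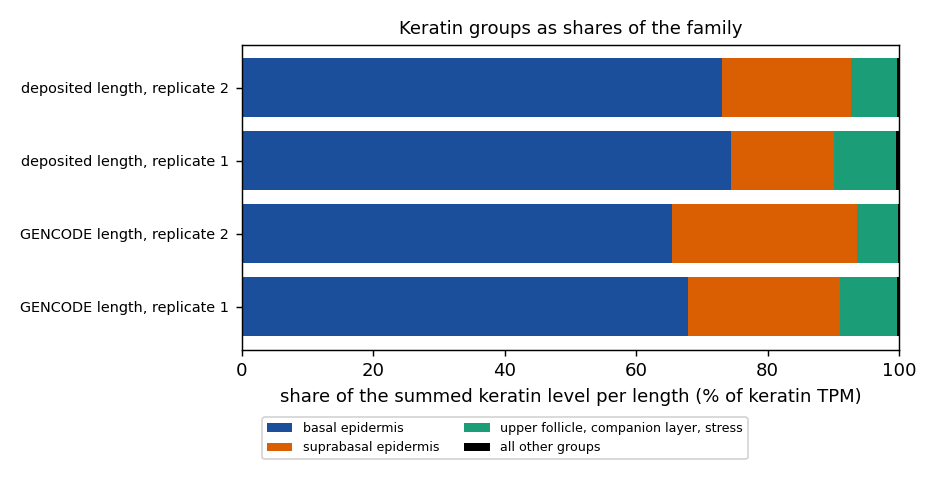
Share of the summed keratin TPM held by each group, as stacked bars for replicate 2 and replicate 1, with the deposited gene lengths in the upper bars and GENCODE transcript lengths in the lower bars. Basal keratins hold 73.0% and 74.4% with the deposited lengths and 65.5% and 67.9% with the GENCODE lengths, and all groups other than the 3 named hold under 1%.

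By mean TPM the order was Krt5, Krt15, Krt14, Krt77, Krt1, Krt17, Krt10, Krt79, Krt80, Krt16 and Krt6a. Several neighbours in that order overlapped between libraries. The ranges of Krt5 and Krt15, of Krt15 and Krt14, of Krt77 and Krt1, of Krt1 and Krt17, of Krt10 and Krt79, of Krt79 and Krt80 and of Krt16 and Krt6a overlapped. Clear steps without overlap lay between Krt14 and Krt77, between Krt17 and Krt10, between Krt80 and Krt16 and between Krt6a and Krt23. Within each library Krt5 stood above Krt15 and Krt15 above Krt14, although their ranges over both libraries overlapped. Krt77 and Krt1 swapped places, with Krt1 above in replicate 2 and Krt77 above in replicate 1. The place of Krt10 rests on its deposited length. With GENCODE lengths it stood above Krt77, Krt1 and Krt17 in both libraries, so the step between Krt17 and Krt10 turned round. Krt10 then came next after Krt14, at 3557 TPM in replicate 2 and 1882 TPM in replicate 1 beside 4643 and 3068 TPM for Krt14. Their ranges overlapped, so with those lengths no clear step lay directly below Krt14.

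Keratin genes are neighbours in the genome. In the RefSeq table of build GRCm38.p6, which holds 54 of the 55 members (not Krt85), 27 type I genes lie on chromosome 11 and 25 type II genes on chromosome 15, where Krt18 and Krt88 also lie. Highly expressed members sat beside nearly silent ones. Krt15 lies between Krt13 and Krt19 and exceeded Krt19 by 1693 times in replicate 2 and 1871 times in replicate 1, per length. Krt14 lies between Krt9 and Krt16, and Krt9 had only 0.115 TPM in replicate 2 and 0.471 TPM in replicate 1, whereas Krt16 was lower than Krt14 by 20.8 and 25.2 times but not silent. Krt5 lies between Krt6a and Krt71 and exceeded Krt71 by 3034 and 2224 times. Krt1 and Krt77 were the only adjacent pair among the 6 members with most counts. Krt2, on the other side of Krt1, had 1.01 and 0.640 TPM.

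**Figure D4:**
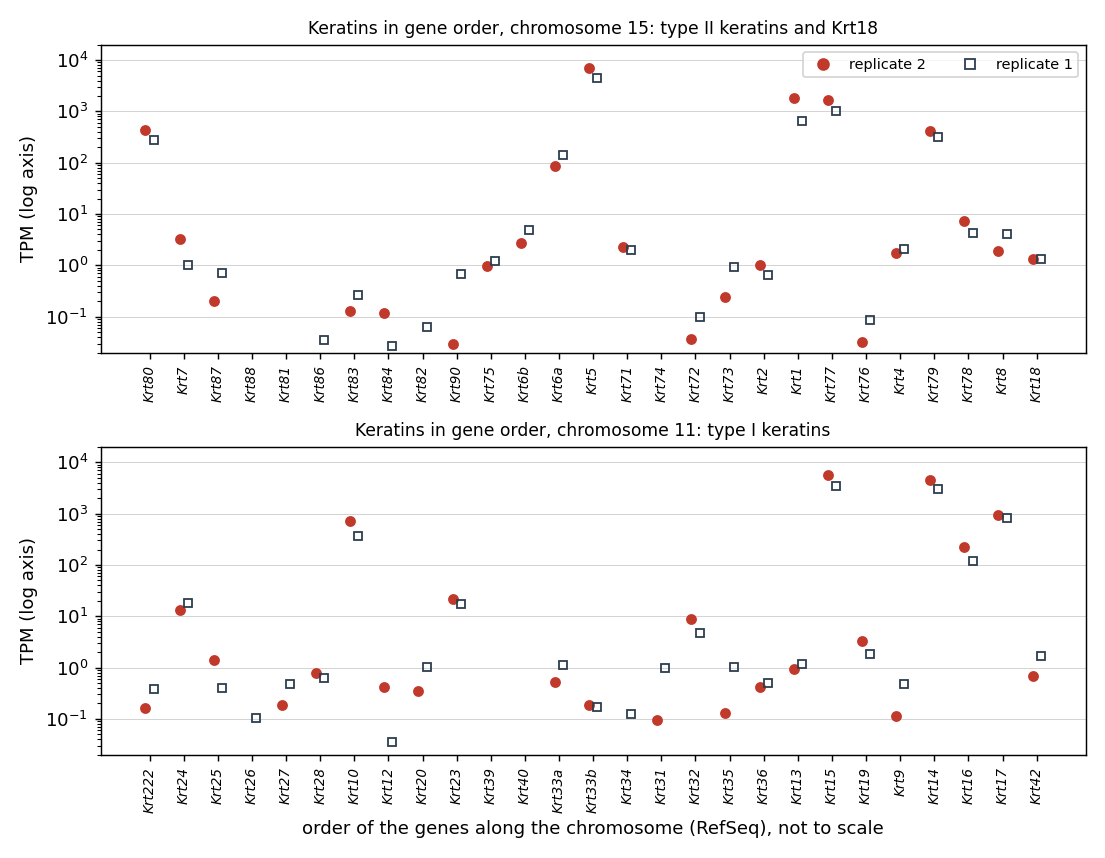
Keratin TPM on a log axis in the order of the genes along chromosome 15 and chromosome 11, with filled circles for replicate 2 and open squares for replicate 1. Distances are not to scale, members with 0 counts in a library have no point there, and Krt85 is not in the order table. Krt5, Krt1 and Krt77 stand out on chromosome 15 and Krt15, Krt14, Krt17 and Krt10 on chromosome 11, each with at least 1 neighbour at or below 3.30 TPM.

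Promoter sequence was available from RefSeq for 36 of the 55 members, of which 12 were detected. The windows below show 120 bases upstream of the start site for keratins from different ranks of the level order, so that their core promoters can be read beside the levels. They are RefSeq sequence of build GRCm38.p6, all from the minus strand and written 5′ to 3′. Capitals mark the TATA box (TATAAA) or its variant letters ATAAA and the repeat TATATA, where they begin 20 to 40 bases before the start on the coding strand. The regions are chr15:101712906-101713025 for Krt5, chr15:101869706-101869825 for Krt77, chr11:99389365-99389484 for Krt10, chr15:101940325-101940444 for Krt79, chr11:100088270-100088389 for Krt32 and chr15:101573905-101574024 for Krt75.
Krt5: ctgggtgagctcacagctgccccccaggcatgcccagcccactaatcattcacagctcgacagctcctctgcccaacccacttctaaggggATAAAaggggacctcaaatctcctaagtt
Krt77: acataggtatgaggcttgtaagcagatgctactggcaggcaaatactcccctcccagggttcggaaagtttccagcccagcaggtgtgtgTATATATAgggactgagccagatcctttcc
Krt10: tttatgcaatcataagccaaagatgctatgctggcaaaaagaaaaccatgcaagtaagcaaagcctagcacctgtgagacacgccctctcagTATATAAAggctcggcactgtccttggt
Krt79: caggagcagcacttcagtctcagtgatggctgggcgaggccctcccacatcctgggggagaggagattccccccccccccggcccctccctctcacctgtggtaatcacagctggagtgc
Krt32: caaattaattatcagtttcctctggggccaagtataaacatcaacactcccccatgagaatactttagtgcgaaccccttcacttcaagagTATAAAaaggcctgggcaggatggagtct
Krt75: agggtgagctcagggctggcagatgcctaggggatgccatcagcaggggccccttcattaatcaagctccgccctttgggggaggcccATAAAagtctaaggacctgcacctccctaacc

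The TATA box is the core promoter element that positions RNA polymerase II. Of the 36 keratin windows, 13 held TATAAA on the coding strand 20 to 40 bases before the start, or 36.1%, against 1.99% of all 32851 promoter windows. Adding ATAAA, which lies within TATAAA, and TATATA, both added after the windows were seen, gave 24 of 36 keratin windows, or 66.7%, against 4.99% of all windows. It was found in 9 of the 12 detected members and in 15 of the other 24, among them Krt12, Krt26 and Krt34, which had at most 11 counts in a library. The 3 detected members with none of these letters in the window were Krt14, one of the most abundant keratins, Krt79 and Krt8. Searched on both strands in the 250 bases before the start, the CCAAT box (CCAAT) was in 38.9% of keratin windows and 33.8% of all, the GC box (GGGCGG) in 5.56% and 32.7%, the AP-2 letters GCCNNNGGC in 13.9% and 13.7%, and the AP-1 letters TGANTCA in 2.78% and 6.75%. In the same RefSeq build the Krt10 gene extends 8085 bases upstream of the start used here.

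Other genes of the filament system were set beside the keratins, from lists without keratins. Vimentin (Vim), the intermediate filament protein of fibroblasts and leukocytes, had 2052 TPM in replicate 2 and 2379 TPM in replicate 1, below the 3 basal keratins and above Krt77 and Krt1 in both libraries. With its GENCODE length, Krt10 was above Vim in replicate 2, at 3557 TPM, and below it in replicate 1, at 1882 TPM. Lamin A/C (Lmna), of the nuclear envelope, had 510 and 388 TPM. Of 13 tested intermediate filament genes other than keratins, 2 were higher and 5 lower in replicate 2, beside 44.1% of all tested genes called in either direction, with a median log2 ratio of -0.19. After epithelial scaling 2 were higher and 7 lower. The neurofilament gene Nefm had no count in either library. Of 13 genes that anchor filaments to desmosomes and hemidesmosomes, 11 were higher and 2 lower, with a median of 0.47, which became 9 higher and 3 lower after epithelial scaling. 5 of these 13 genes (Dsp, Jup, Itga6, Itgb4 and Col17a1) are also among the epithelial genes used for scaling. Of all tested genes, 16.9% were higher and 27.2% lower before epithelial scaling, and 975 and 13554 of 23690 after it. Desmoplakin (Dsp) had 4007 and 2990 CPM and the hemidesmosomal collagen Col17a1 had 2952 and 2303 CPM, while Pkp2 was lowest with 37 and 73 counts.

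Among 6 genes of the filament matrix and of filament organisation, 5 were higher and 1 lower in replicate 2, which became 2 higher and 1 lower after epithelial scaling. Of all tested genes, 16.9% were higher and 27.2% lower, and 975 and 13554 of 23690 after that scaling. Krtdap, a small protein of differentiating keratinocytes, had 174 CPM in replicate 2 against 108 in replicate 1, and Fam83h, which organises keratin filaments, had 160 and 117 CPM. Filaggrin (Flg), which bundles keratin filaments in the granular layer, was lowest at 4.90 and 3.57 CPM. Of 16 transcription factors and receptors tied to keratin genes, 12 were higher and 3 lower, turning to 7 and 8 after epithelial scaling. These counts stand beside the same shares of all tested genes. Trp63 is among both these 16 genes and the epithelial genes used for scaling. Klf4, a factor of suprabasal differentiation, had 1147 and 1023 CPM, and the receptor Notch1 had 825 and 593 CPM. Msx2 was lowest at 3.49 and 4.17 CPM and did not pass the test, at an adjusted p of 0.261 by the binomial test. The fibroblast markers, which were 10 of 10 lower in replicate 2 at a median log2 ratio of -0.94, moved opposite to the basal and suprabasal keratins, and their part in the CPM differences was not tested. Scaled to the epithelial genes, the basal keratins and Krt1, Krt10, Krt77 and Krt80 were still higher in replicate 2 by the binomial test, which covers counting error only. Before scaling, those 13 epithelial genes ran from a log2 ratio of -0.47 (Epcam) to 0.61 (Cldn4). Krt14, at 0.60, lay within that range, and Krt80 (0.62) and Krt5 (0.64) lay just above it. Krt15 (0.68), Krt77 (0.71), Krt10 (0.92) and Krt1 (1.49) lay above it too.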

How the data were processed

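Total RNA of sorted cells was depleted of ribosomal RNA by hybridization and sequenced as paired 150-base reads, per the labels' protocols. The deposited files give raw counts per gene, made with featureCounts on build mm39 per the submitters' processing notes, and a gene length in bases. For aligner, annotation, strand setting and multi-mapped reads, nothing is given in the sources used here. Near-identical and overlapping keratin genes depend on these settings.

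CPM used all counts of a library, and TPM the deposited length. Libraries were compared by the exact binomial test on counts, with 0.5 added for log2 ratios except in the plot of ratios and where stated, and by edgeR 4.0.16's exact test with a common dispersion estimated without groups and TMM factors. Size factors came from DESeq2 1.42.0. On simulated libraries of 23690 genes the binomial test recovered 97% of genes changed by 1 on the log2 scale, with 9 false calls. At a change of 0.3 it recovered 54%. That run does not show how often the binomial test calls unchanged genes at the spread of these libraries, estimated at 22.7%. edgeR recovered 21% at 1 and 100% at 2, at a simulated coefficient of variation of 15%, which is below that estimate. The number of animals in each library is not stated. Binomial p-values cover counting error only, and those of edgeR rest on a spread between these libraries that is common to all genes. Intervals cover counting error only. No molecular identifiers were counted, so repeat copies of a molecule may add to the counts and leave the intervals too narrow.

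All keratins at 1 CPM or more in both libraries were named with both values, and the others by group. Of the other lists the 2 highest and the lowest member were named, except that epithelial, fibroblast and myeloid markers are given as sums. Other genes named, such as Hoxc13, Xist and Atoh1, were chosen after their values were seen. Keratin types and groups follow textbook nomenclature. The members and lists were chosen with earlier results of these data known. Similar transcripts were found with blastn 2.17.0 in GENCODE M21 (build GRCm38), at 93% identity and 150 bases or more.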

Additional observations from a re-analysis of the deposited data

How the results depend on the processing

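Calls between the libraries depended on the test. Of the 30 keratins called by the binomial test, 17 higher and 13 lower in replicate 2, edgeR's exact test left 1, with 0 higher and 1 lower. TMM factors and DESeq2 size factors gave the same 17 and 13. Scaling to the epithelial genes turned the log2 ratios of Krt17 to -0.16, Krt23 to -0.0036 and Krt71 to -0.14. At 10 CPM instead of 1 CPM, 13 keratins were detected. Without length scaling (CPM), the log2 ratio of type II over type I was 0.0064 for the family, 0.95 for Krt5 over Krt14, -1.02 for Krt1 over Krt10, -1.24 for Krt85 over Krt35 and 1.15 for Krt4 over Krt13, against -0.13, 0.59, 1.09, -1.83 and 0.85 with TPM. With GENCODE transcript lengths, chosen after the Krt10 length was seen, it was -0.43 for the family, -1.25 for Krt1 over Krt10 and 0.78 for Krt4 over Krt13, and the basal and suprabasal shares of keratin TPM were 66.7% and 25.6%, against 73.7% and 17.7%. These changes follow from the lengths alone. No paired analysis was possible because both libraries belong to 1 group. Leaving out either library leaves the values of the other, which the text gives. Members under about 30 counts are limited by counting error.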

Other observations

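Keratin-associated proteins, which embed hair keratins in the shaft, were nearly silent. Of 56 Krtap genes in the files, 43 had no count in either library, and the summed counts were 164 in replicate 2 and 184 in replicate 1. Krtap17-1 had 107 counts in replicate 2 and 128 in replicate 1 and held most of that sum. It was the only Krtap gene at 1 CPM or more in both libraries, with an adjusted p of 0.643 by the binomial test. Krtap3-2 followed with 35 and 20 counts, at an adjusted p of 0.0484, and Krtap11-1 had 0 and 15. All 3 were chosen after their values were seen.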
